A study of Homo sapiens with 7 samples.

Results

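B4 bins are the 50 kb bins of the genome that fell in the interaction cluster named B4 when the authors grouped bins by their Hi-C contacts. They were found as the bins lying inside deposited intervals with that name, in untreated DNMT1-AID cells, and were matched to the deposited table of cluster codes. Of 46042 bins with a cluster, 282 were in B4 (0.612%), covering 14.1 Mb. The name rests on contacts, so which bins are in B4 describes the clustering and is not tested here. What the bins share that the clustering did not use, such as their genes, is described by counts, with no test.

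The cells were DLD-1, an established human colorectal adenocarcinoma line, and every library carried DNMT1-AID, a DNMT1 fused to an auxin-inducible degron, so that auxin leads to degradation of this DNA methyltransferase. There were 7 Hi-C libraries, 1 for each group. Of these, 3 came from cells titled as also lacking DNMT3B (3BKO, genotype DNMT3b -/-), without treatment, with auxin for 4 d and with auxin for 10 d. The other 4 came from DNMT1-AID cells without treatment, with auxin for 4 d, with auxin for 10 d, and with 4 d of auxin and then 4 d of washout. The untreated 3BKO library has a genotype label that names only DNMT1-AID. Clusters were available for the untreated DNMT1-AID library only, which held 114710963 contacts, while the 7 libraries ranged over 27345260 to 222645438. There was thus 1 clustering of 1 library, no replicate, and no way to say from these data whether auxin or the loss of DNMT3B moved a bin in or out of B4. The contact tables give no value for single genes, so loss of DNMT1 or DNMT3B could not be checked in them. The labels do not say whether a line was 1 clone.

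Hi-C joins pieces of DNA that lie close together in the nucleus, so bins with like contacts across the genome can be grouped into compartments. In general, A compartments hold active, gene-rich chromatin and B compartments hold silent chromatin. The name B4 was first used for a compartment of human chromosome 19 rich in KRAB zinc finger genes. Those genes encode DNA-binding repressors of transposable elements, arose by tandem duplication and often carry the repressive mark H3K9me3 over their bodies. Clustered protocadherin genes, which give neurons their surface identity, and imprinted genes, which are expressed from the copy of 1 parent, are other classic loci where repeated promoters or parental copies differ in DNA methylation.

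The promoters below show what lies in the longest B4 runs, a run being B4 bins with no other bin between them. They are those of the outermost zinc finger genes of the longest run on chromosome 19 (ZNF582 and ZNF805) and of the longest run elsewhere, on chromosome 5 (ZNF354A and ZNF354C). The promoter of PCDHB2, a protocadherin gene, was added after its values were seen. Each sequence is the 250 bases before the gene start, from RefSeq on GRCh38.p14, with CpG dinucleotides, the sites of DNA methylation, in capitals.
ZNF582 (chr19:56393535-56393784, minus strand): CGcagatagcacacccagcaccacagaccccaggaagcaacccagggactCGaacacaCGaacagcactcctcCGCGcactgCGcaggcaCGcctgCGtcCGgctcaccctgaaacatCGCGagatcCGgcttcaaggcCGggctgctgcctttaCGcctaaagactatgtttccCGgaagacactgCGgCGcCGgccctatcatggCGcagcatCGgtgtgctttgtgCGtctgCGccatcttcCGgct
ZNF805 (chr19:57240382-57240631, plus strand): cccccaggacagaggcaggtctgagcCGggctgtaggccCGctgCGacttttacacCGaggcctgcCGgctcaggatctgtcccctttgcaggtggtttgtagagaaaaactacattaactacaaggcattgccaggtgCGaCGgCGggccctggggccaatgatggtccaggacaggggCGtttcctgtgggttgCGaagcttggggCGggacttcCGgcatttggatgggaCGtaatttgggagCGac
ZNF354A (chr5:178730660-178730909, minus strand): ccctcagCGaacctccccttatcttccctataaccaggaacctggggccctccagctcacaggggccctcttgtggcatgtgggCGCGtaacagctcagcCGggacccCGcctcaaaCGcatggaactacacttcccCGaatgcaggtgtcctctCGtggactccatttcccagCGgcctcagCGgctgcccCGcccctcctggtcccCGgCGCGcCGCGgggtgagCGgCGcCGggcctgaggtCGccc
ZNF354C (chr5:179060123-179060372, plus strand): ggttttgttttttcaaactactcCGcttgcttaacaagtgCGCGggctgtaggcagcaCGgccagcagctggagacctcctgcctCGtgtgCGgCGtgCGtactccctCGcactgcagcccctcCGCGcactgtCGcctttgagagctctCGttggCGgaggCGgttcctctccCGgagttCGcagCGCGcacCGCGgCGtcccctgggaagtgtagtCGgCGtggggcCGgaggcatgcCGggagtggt
PCDHB2 (chr5:141094365-141094614, plus strand): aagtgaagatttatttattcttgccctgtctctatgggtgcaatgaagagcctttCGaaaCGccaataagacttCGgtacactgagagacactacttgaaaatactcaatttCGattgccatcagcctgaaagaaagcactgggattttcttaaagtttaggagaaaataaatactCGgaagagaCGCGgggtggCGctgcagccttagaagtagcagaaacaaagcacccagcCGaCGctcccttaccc
The ZNF582 and ZNF805 windows held 23 and 14 CpGs, and those of ZNF354A and ZNF354C held 20 and 26. The PCDHB2 window held 10 CpGs and was 44.8% G+C, the lowest of the 5, while the zinc finger windows ran from 60.4% to 68.4%.

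B4 bins were concentrated on chromosome 19. It held 154 of the 282 (54.6%) and 2.18% of all clustered bins. On this chromosome B4 made up 15.4% of 1003 clustered bins, and on the other chromosomes 0.284% of 45039. The remaining B4 bins lay on 15 chromosomes, with the most on chromosome 5 (24), chromosomes 7 and 8 (19 each), chromosome 15 (12) and chromosome 16 (11). Chromosome 12 held 9, chromosome 6 held 7, chromosomes 1 and 4 held 5 each, and chromosomes 3 and 11 held 4 each. Chromosome 10 had 3, and chromosomes 2, 9 and 17 had 2 each. The clustered chromosomes 14, 18, 20, 21 and 22 had none, and chromosome 13 had no clustered bin at all.

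**Figure D1:**
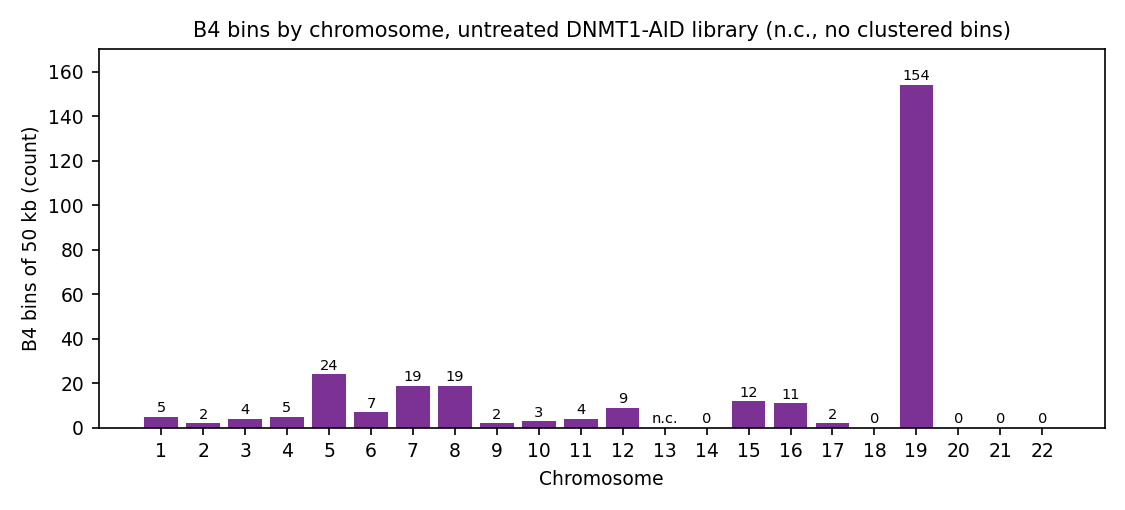
Bars give the count of 50 kb bins in the B4 cluster on each autosome in the untreated DNMT1-AID library, with the count above each bar. Chromosome 19 holds 154, and chromosome 5, the next, holds 24.

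On chromosome 19 the other clusters were also unlike the rest of the genome. A1 held 41.8% of its clustered bins, A2 21.3%, V+VI 13.8% and B2/B3 7.78%, whereas on the other chromosomes B2/B3 led with 37.5%, followed by V+VI with 29.6%, A2 with 26.4% and A1 with 6.31%. B4 bins thus stood on a chromosome that was otherwise mostly in the A clusters, and outnumbered those of V+VI there (138 bins).

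When B4 runs of chromosome 19 less than 1 Mb apart were joined, they formed 8 regions. On the short arm they were chr19:9150001-9750000 with 10 B4 bins, chr19:11650001-12500000 with 15 and chr19:19700001-24400000 with 46. On the long arm they were a lone bin at chr19:27500001-27550000, then chr19:36200001-37800000 with 22, chr19:43800001-44500000 with 7, chr19:51750001-53750000 with 27 and chr19:56350001-58200000 with 26. The largest, of 4.7 Mb, was also the one nearest to the centromere on the short arm, and 40 of its 94 bins had no cluster. The last region held 26 B4 bins and 11 V+VI bins, and none of another cluster.

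Zinc finger genes were counted by symbol (ZNF, ZFP, ZSCAN, ZKSCAN, ZIM and ZIK with a number) and placed by their leftmost base. They were most of the B4 protein-coding genes in 7 of these 8 regions. In chr19:11650001-12500000 all 17 B4 protein-coding genes were zinc finger genes, in chr19:43800001-44500000 all 7, in chr19:36200001-37800000 20 of 21 and in chr19:19700001-24400000 20 of 22. In chr19:51750001-53750000 it was 24 of 34, in chr19:56350001-58200000 28 of 37 and in chr19:9150001-9750000 7 of 11. The lone bin held no protein-coding gene. Bins outside B4 in these regions also held the family. Over all bins, in the order given, zinc finger genes were 20 of 20, 20 of 20, 28 of 29 and 36 of 38. Then came 38 of 50, 48 of 58 and 10 of 14 protein-coding genes. Within a region the share was thus not particular to B4 bins.

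**Figure D2:**
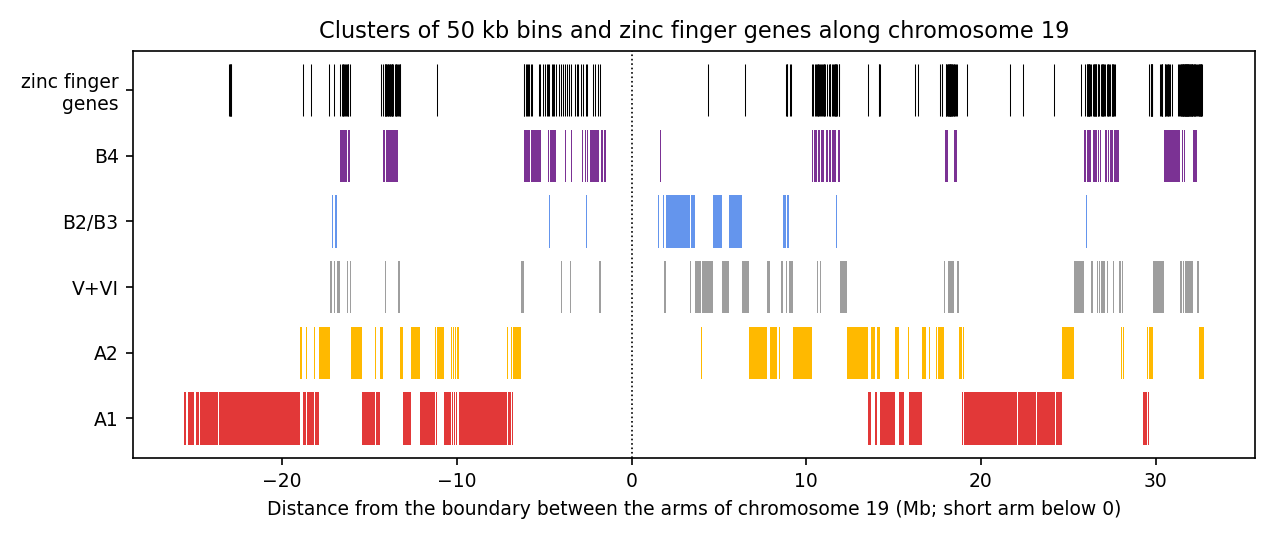
Each coloured row shows the 50 kb bins of chromosome 19 in that cluster, and black ticks show the zinc finger genes, against distance in Mb from the boundary between the arms, which is the dotted line. B4 bins lie in 8 groups, 7 of them under dense zinc finger genes, while some zinc finger genes have no B4 bin beneath them.

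The longest B4 run, chr19:56350001-57250000, had 18 bins (900 kb) and 19 protein-coding genes, 12 of them zinc finger genes from ZNF582 to ZNF805. These 12 include ZIM3, which encodes a strong KRAB repressor, and ZIM2, an imprinted gene that shares a promoter with PEG3. The other genes of the run include PEG3, itself a zinc finger gene that the symbol rule leaves out, USP29, a ubiquitin peptidase gene, DUXA, a homeobox gene of the early embryo, and AURKC, the Aurora kinase of meiosis. In the next longest run of the chromosome, chr19:11800001-12400000, of 12 bins, all 15 protein-coding genes were zinc finger genes, from ZNF440 to ZNF799, among 33 genes of all kinds. Of the 46 runs on chromosome 19, 13 had 4 or more bins, and zinc finger genes were the leading family in all 13.

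The other long runs of the chromosome showed the same family in smaller sets. The run chr19:9150001-9550000 held 6 zinc finger genes from ZNF699 to ZNF426 next to 3 olfactory receptor genes, OR7D2, OR7E24 and OR7D4. The run chr19:19700001-20050000 held 5, from ZNF14 to ZNF682, among them ZNF93, whose protein represses LINE-1 elements. Further toward the centromere, ZNF486 stood alone in chr19:20100001-20300000, ZNF737 and ZNF626 in chr19:20350001-20650000, 3 genes from ZNF708 to ZNF493 in chr19:21200001-21500000, and ZNF675 and ZNF681 in chr19:23450001-23850000. Genes there were sparse, with 1 to 3 protein-coding genes in runs of 4 to 8 bins. On the long arm, chr19:37300001-37550000 held 5 from ZNF875 to ZNF793, chr19:44300001-44500000 held 4 from ZNF112 to ZNF180 and chr19:52250001-52500000 held 7 from ZNF766 to ZNF578. The run chr19:58000001-58200000 held 5 from ZSCAN1 to ZNF274, the last of which encodes a protein that binds other zinc finger genes and brings H3K9me3 to them. The run chr19:53450001-53750000 held ZNF813, ZNF331 and the homeobox gene DPRX, with a microRNA cluster described below.

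Outside chromosome 19 the runs were 50 in number, with a median of 1 bin (50 kb), against a median of 2 bins (100 kb) for the 46 runs of chromosome 19. Of the 50, 27 were a lone bin, against 13 of 46 on chromosome 19. Runs of 4 or more bins numbered 10 and held 70 bins (54.7% of those outside chromosome 19), while the 13 of chromosome 19 held 93 of 154 (60.4%). No protein-coding gene started in 24 of the 50 runs, against 4 of the 46. Zinc finger genes were present in 16 of the 50, against 40 of the 46.

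The 10 longest runs outside chromosome 19 were of several kinds, and 5 were led by zinc finger genes. The longest, chr5:178550001-179150000, had 12 bins (600 kb) and 10 protein-coding genes. Its 6 zinc finger genes, from ZNF354A to ZNF354C with ZNF354B, ZFP2, ZNF454 and ZNF879, lay among CLK4, a splicing kinase gene, MSANTD5, GRM6, a glutamate receptor gene of the retina, and ADAMTS2, a procollagen protease gene. The next, chr12:132800001-133250000, had 9 bins near the end of the long arm. It held CHFR, a mitotic checkpoint ubiquitin ligase gene, and 7 zinc finger genes, among them ZNF605, ZNF26, ZNF84, ZNF140, ZNF891 and ZNF268. On chromosome 7, chr7:64600001-65000000 held ZNF107, ZNF138, ZNF273 and ZNF117, next to the envelope gene of an endogenous retrovirus, ERV3-1. The run chr3:44550001-44750000 held 9 genes in 4 bins, 6 of them zinc finger genes from ZKSCAN7 to ZNF501, and chr1:227500001-227750000 held ZNF678 with SNAP47 and JMJD4.

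The other 5 long runs outside chromosome 19 were not led by zinc finger genes. The run chr5:141050001-141450000 held 35 protocadherin genes from PCDHB1 to PCDHGA12, with SLC25A2, a mitochondrial carrier gene, and TAF7, a gene of the general transcription factor TFIID. Both chr15:24750001-25050000, with SNRPN and SNURF, and chr15:25250001-25450000, with UBE3A, belong to the imprinted Prader-Willi and Angelman region. The run chr16:31500001-31800000 held AHSP, whose protein stabilises alpha globin, and KRABD5, a gene named for its KRAB domain that the symbol rule does not count as a zinc finger gene. The run chr8:43500001-43900000, of 8 bins, held no protein-coding gene start.

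The bins next to a B4 run were most often in V+VI. The 96 runs had 192 ends, of which 85 (44.3%) met a bin without a cluster and 107 a clustered bin. Of the 107, 67 (62.6%) were V+VI, 30 (28.0%) B2/B3, 9 (8.41%) A2 and 1 A1, whereas of all clustered bins outside B4, 29.4% were V+VI, 37.0% B2/B3, 26.4% A2 and 7.13% A1. On chromosome 19 V+VI made up 77.4% of 62 clustered neighbours and 16.3% of the chromosome's clustered bins outside B4. None of these 62 was A1, the cluster with 49.4% of those bins. On the other chromosomes V+VI made up 42.2% of 45 neighbours, against 29.6% of bins, and B2/B3 40.0%, against 37.6%. Neighbours are bins of the same clustering, and contacts of adjacent bins overlap, so these shares are a description with no test.

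**Figure D3:**
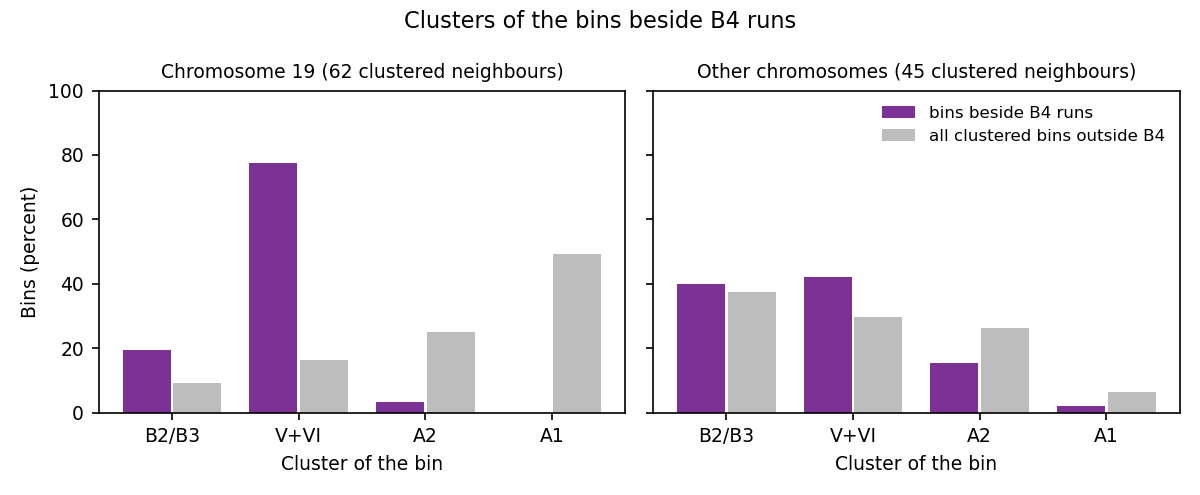
Purple bars give the percent of clustered bins directly beside a B4 run that belong to each other cluster, and grey bars the percent of all clustered bins outside B4, for chromosome 19 (left) and the other chromosomes (right). V+VI holds 77.4% of the neighbours on chromosome 19 and 42.2% elsewhere.

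V+VI stood on both sides of 22 runs, 17 of them on chromosome 19, including the 18-bin run. B2/B3 stood on both sides of 9 runs, 7 of them outside chromosome 19, the long protocadherin run among them. A2 stood on both sides of 3 runs, all outside chromosome 19, including the zinc finger run of chromosome 3. Both neighbours had no cluster for 28 runs, 21 of them outside chromosome 19. Gaps between runs were often short: on chromosome 19, 23 of 45 gaps were 1 bin wide, and that bin was V+VI in 10, B2/B3 in 5, A2 in 1 and unclustered in 7. On the other chromosomes 14 of 35 gaps were 1 bin wide, with 11 unclustered and 3 B2/B3.

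Many B4 bins outside chromosome 19 lay close to a centromere. Distance was taken from the boundary between the arms, and 49 of these bins (38.3%) were within 5 Mb of it, against 3.21% of B2/B3, 2.89% of V+VI, 3.25% of A2 and 0.915% of A1 bins on the same chromosomes. Their median distance was 6.53 Mb, against 39.2 Mb for B2/B3 bins and 45.4 Mb for V+VI bins. All 19 B4 bins of chromosome 8 were within 5 Mb, as were 15 of 19 on chromosome 7, all 4 on chromosome 11, all 3 on chromosome 10 and both on chromosome 2. Chromosomes 7 and 8 thus gave most of the 49. By contrast, chromosome 5 had 1 of 24 that near, chromosome 16 had 3 of 11, chromosome 6 had 1 of 7 and chromosome 4 had 1 of 5. None of the B4 bins of chromosomes 1, 3, 9, 12, 15 and 17 was within 5 Mb. On chromosome 19, 30 of 154 B4 bins (19.5%) were that near, against 57.7% of its 78 B2/B3 bins and 18.1% of its 138 V+VI bins. Repeats near centromeres map poorly, many bins there had no cluster, and the part of mapping in these shares was not tested.

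Zinc finger and protocadherin genes made up most of the protein-coding genes in B4. Of 15928 protein-coding genes in clustered bins, 258 (1.62%) had their leftmost base in B4. On chromosome 19 the share was 11.4% (149 of 1308), and on the other autosomes 0.746% (109 of 14620). Zinc finger genes numbered 160 in B4 of 484 clustered, or 33.1%, so that 62.0% of all B4 protein-coding genes were zinc finger genes. Of 59 clustered protocadherin genes, 41 (69.5%) were in B4. Neighbouring genes of a family share bins, so the counts are not independent, and no test was made.

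**Figure D4:**
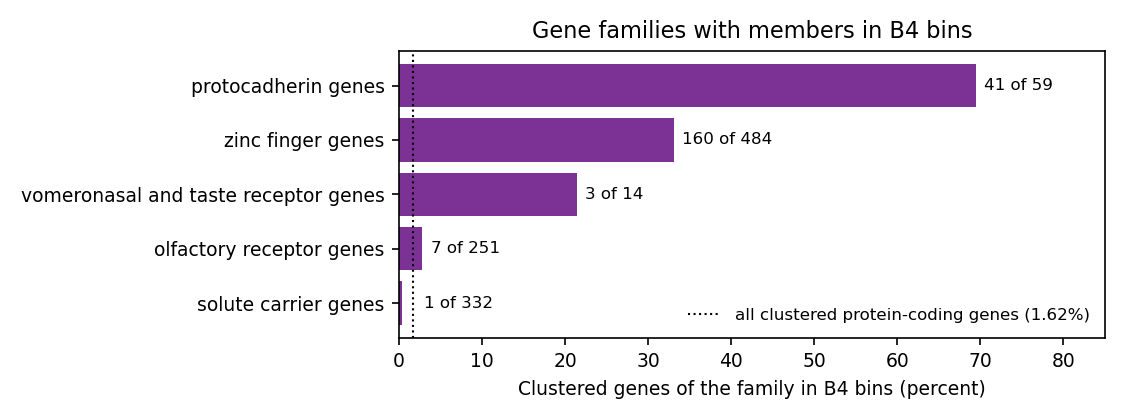
Bars give the percent of clustered protein-coding genes of each family that lie in B4 bins, with the counts beside them, and the dotted line is the 1.62% of all clustered protein-coding genes. Protocadherin genes stand at 69.5%, zinc finger genes at 33.1% and olfactory receptor genes at 2.79%.

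Of 28 gene families counted, 5 had a gene in B4. The other families in B4 had few. Vomeronasal and taste receptor genes had 3 of 14, VN1R1, VN1R2 and VN1R4, which encode putative pheromone receptors and all lay on chromosome 19. Olfactory receptor genes had 7 of 251 (2.79%), namely the 3 of chromosome 19 given above and OR4A15, OR4A16, OR4C15 and OR4C16 on chromosome 11, while 173 of the 251 were in B2/B3. Solute carrier genes had SLC25A2 alone, of 332. Among the 23 families with no B4 gene were other tandem arrays of chromosome 19, such as the 15 clustered kallikrein genes, which encode secreted serine proteases, and the 11 clustered CEACAM and PSG genes. None of the 31 clustered BTB zinc finger genes, the ZBTB family of transcription factors, was in B4. HOX genes (35 clustered), histone genes (72) and keratin genes (44), none on chromosome 19, had none either. With 0.746% of all protein-coding genes in B4 outside chromosome 19, no gene in B4 is near the background for families of these sizes. The zeros of the HOX, histone, keratin and BTB genes are thus not a result about them. The kallikrein, CEACAM and PSG genes all lie on chromosome 19, where 11.4% of clustered protein-coding genes were in B4. At that share few of 15 or of 11 genes would be in B4. Genes of a tandem array are not independent, and these zeros were not tested and are not a result about them either. HLA genes, also among the 23, had no gene in a clustered bin and so could not be in B4.

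On chromosome 19, 123 of 243 clustered zinc finger genes (50.6%) were in B4, 71 (29.2%) in V+VI, 25 in A2, 16 in A1 and 8 in B2/B3. They made up 82.6% of the B4 protein-coding genes of the chromosome and 10.4% of those outside B4. On the other chromosomes, 37 of 241 (15.4%) were in B4, and 65 were in V+VI, 65 in A1, 60 in A2 and 14 in B2/B3. They made up 33.9% of the B4 genes there and 1.41% of the genes outside B4. Membership of the family was thus not the same as membership of the cluster: chromosome 16, for example, had 1 gene in B4 (ZNF267) of 34.

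The 37 zinc finger genes in B4 outside chromosome 19 came from 12 chromosomes. Chromosome 7 had 8 of 34, ZNF722, ZNF735, ZNF679 and ZNF680 with the 4 of the long run. Chromosome 12 had 7 of 12, which with the above include ZNF10, the source of a KRAB domain used in gene silencing tools. Chromosomes 3 and 5 had 6 each, of 19 and of 15. Chromosome 4 had ZNF732 and ZNF721, chromosome 6 had ZNF391 and ZNF184, and the rest were ZNF678, ZNF2, ZNF510, ZNF239, ZNF267 and ZNF624, each the only one of its chromosome in B4. Chromosomes 8, 15, 18 and 20 had 11, 9, 10 and 10 clustered zinc finger genes and none in B4.

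Counted by whole gene bodies, 171 of the 282 B4 bins (60.6%) overlapped a zinc finger gene. On chromosome 19 these were 124 of 154 bins (80.5%), against 47.1% of V+VI, 17.9% of B2/B3, 8.88% of A2 and 3.58% of A1 bins. On the other chromosomes they were 47 bins (36.7%), and no other cluster there was above the 2.60% of A1. At the other end, 72 B4 bins overlapped no protein-coding gene, 23 on chromosome 19 and 49 elsewhere.

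B4 bins were gene-rich for bins in a cluster of B name. They held 0.915 protein-coding genes per bin, against 0.0858 in B2/B3, 0.307 in V+VI, 0.488 in A2 and 1.28 in A1. On chromosome 19 the 0.968 per B4 bin was below V+VI (1.02), A2 (1.52) and A1 (1.63) and above B2/B3 (0.128). On the other chromosomes it was 0.852, and 43 of the 109 B4 genes there lay in the 10 B4 bins of the protocadherin locus. A protein-coding gene was placed in 170 of the 282 B4 bins. Pseudogenes were 0.865 per B4 bin, above each of the other clusters, which ran from 0.159 in B2/B3 to 0.344 in A1. Among them were 15 of 51 clustered zinc finger pseudogenes (29.4%), 30 of 72 clustered vomeronasal receptor pseudogenes (41.7%) and 11 of 251 clustered olfactory receptor pseudogenes (4.38%), lists that were added after the B4 genes were seen. Of genes of all kinds in clustered bins, 1.51% were in B4, with 16.6% on chromosome 19 and 0.672% on the other autosomes.

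The protocadherin genes in B4 all lay on chromosome 5, and started in 9 of the 10 B4 bins between chr5:140750001 and chr5:141450000. Of the 59 clustered genes of the family, 14 were in B2/B3 and 4 in V+VI, with none in A1 or A2. PCDHA1 and PCDHA2 were in a lone B4 bin and PCDHA10 to PCDHA13 in another, while the alpha genes between them stood in B2/B3. The beta and gamma genes from PCDHB1 to PCDHGA12 were in 1 unbroken run of 8 bins. The C-type genes, which end the alpha and gamma arrays and are not chosen at random by neurons as the others are, were all in B2/B3: PCDHAC1 and PCDHAC2, PCDHGC3, PCDHGC4 and PCDHGC5. Beyond the array, PCDH1 and PCDH12 were in V+VI. A bin of this locus held up to 10 protein-coding genes, the highest count of any B4 bin.

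Known imprinted genes were looked up because several were seen in B4, with a list of 37 written after that. Of 29 that lay in clustered bins, 8 were in B4: SNRPN, SNURF, IPW and UBE3A on chromosome 15, and ZNF331, ZIM2, PEG3 and MIMT1 on chromosome 19. Of clustered genes of all kinds 1.51% were in B4, with 16.6% on chromosome 19, where 4 of the 8 lie, and 0.672% on the other autosomes. The 29 were not split by chromosome in this way, so 8 of 29 has no matching background. A2 held 11 (among them MEST, DLK1, MEG3 and GNAS), V+VI 6 (among them PEG10 and GRB10), B2/B3 3 (NDN, MAGEL2 and DIRAS3) and A1 1 (ZNF597). The 8 B4 genes come from 3 loci, and NDN and MAGEL2, of the same Prader-Willi region as SNRPN, were in another cluster. The small nucleolar RNA genes of that region, SNORD115 and SNORD116, which come in tandem copies, had 9 of 78 in clustered bins, all 9 of them in B4, against the 0.672% of all genes outside chromosome 19. These 9 are neighbours in the array and share bins.

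MicroRNA genes formed another tandem array inside B4. Of 1472 microRNA genes in clustered bins, 43 (2.92%) were in B4, 41 of them on chromosome 19 and 39 in the single run chr19:53450001-53750000. On chromosome 19, 41 of 134 clustered microRNA genes were in B4, against 392 of 2364 genes of all kinds (16.6%). On the other autosomes 2 of 1338 were, against 287 of 42690 genes of all kinds (0.672%), so outside chromosome 19 the share of microRNA genes in B4 was below that of all genes. This is the primate-specific, imprinted microRNA cluster of chromosome 19, which is expressed mainly in placenta, and its B4 genes ran from MIR512-1 to MIR521-1. The array crossed the border of the run: MIR522, MIR519A1, MIR527, MIR516A1, MIR1283-2, MIR516A2 and MIR519A2 were in V+VI, as were MIR371A, MIR371B, MIR372 and MIR373 beyond them. The other B4 microRNA genes were MIR1270 and MIR643 on chromosome 19, MIR571 on chromosome 4 and MIR6839 on chromosome 7.

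Mature sequences of the array are printed to show the seeds that several of its genes share. They are from RefSeq (GRCh38.p14), 5′ to 3′, with the seed (bases 2 to 8, which pair with targets) in capitals. Shown are up to 2 for each seed carried by 3 or more B4 genes and, for comparison, miR-372-3p and miR-373-3p, chosen after the values were seen, whose genes stand in V+VI.
hsa-miR-519c-5p: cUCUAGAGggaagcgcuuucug
hsa-miR-519b-5p: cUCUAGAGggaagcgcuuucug
hsa-miR-518b: cAAAGCGCuccccuuuagaggu
hsa-miR-526a-3p: gAAAGCGCuuccuuuuagagga
hsa-miR-520e-3p: aAAGUGCUuccuuuuugaggg
hsa-miR-520a-3p: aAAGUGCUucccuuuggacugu
hsa-miR-515-3p: gAGUGCCUucuuuuggagcguu
hsa-miR-519e-3p: aAGUGCCUccuuuuagaguguu
hsa-miR-517-5p: cCUCUAGAuggaagcacugucu
hsa-miR-517a-3p: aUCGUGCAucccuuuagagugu
hsa-miR-517b-3p: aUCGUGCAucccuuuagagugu
hsa-miR-515-5p: uUCUCCAAaagaaagcacuuucug
hsa-miR-519e-5p: uUCUCCAAaagggagcacuuuc
hsa-miR-372-3p: aAAGUGCUgcgacauuugagcgu
hsa-miR-373-3p: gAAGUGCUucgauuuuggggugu
The 43 genes had 75 mature sequences with 38 different seeds, of which 19 were carried by 1 B4 gene only, so the sequences printed are the shared ones by choice. The seed UCUAGAG was carried by 9 B4 genes of 11 clustered genes that have it, and the seed AAAGCGC of miR-518b by 6 of 6. The seeds of miR-517-5p, miR-517a-3p and miR-515-5p were carried by 3 B4 genes each, with no clustered gene outside B4, and that of miR-515-3p by 3 of 4. Most of the array was in B4: 39 of its genes were, while those from MIR522 to MIR519A2 were in V+VI. The counts above are near the share of the array as a whole. Some other seeds had lower counts: GCUUCCU was carried by 2 B4 genes of 5 clustered genes that have it, and AAGUGCA by 2 of 4. None of these counts is a result about the seeds. AAGUGCU was carried by 5 B4 genes, MIR520A to MIR520E, and by 6 genes in V+VI, MIR372, MIR373 and MIR302A to MIR302D, the last 4 of a stem cell microRNA cluster on another chromosome.

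Promoters of zinc finger genes placed in B4 had a somewhat lower median G+C than those of zinc finger genes placed outside it. Here and below, in B4 or outside it refers to the leftmost base of the gene. For a gene on the minus strand that base is at the far end from the promoter. The bin of the promoter itself was not checked, so some windows of B4 genes may lie outside B4. Windows of 300 bases, 250 before to 50 after the start, were found for 221 of the 258 B4 genes and 12721 of the 15928 clustered genes. On chromosome 19 the median G+C was 59.0% for 107 B4 zinc finger genes and 62.0% for 105 zinc finger genes outside B4, with medians of 20 and 22 CpGs. On the other chromosomes it was 59.0% for 34 in B4 and 65.3% for 167 outside, with 19.5 and 25 CpGs. The median over all 12721 was 63.0%, with 23 CpGs. Within each group the windows ranged widely, from 39.0% to 75.3% for the B4 zinc finger genes of chromosome 19.

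The letters CCGGAAG, the core of an ETS factor motif, stood on either strand in 41.1% of the B4 zinc finger windows of chromosome 19 and in 41.9% of those outside B4, against 14.8% of all windows. CCAAT was in 52.3% and 52.4% of them, and in 36.0% of all. TATAAA was in 1.87% and 2.86%, and in 9.13% of all. Outside chromosome 19 CCGGAAG was in 35.3% of the zinc finger windows both in B4 and outside it, whereas CCAAT was in 17 of the 34 in B4 and in 61 of the 167 outside (36.5%). TATAAA was there in none of the 34 and in 3.59% of the 167. GCCATNTT, a YY1 motif, was in 12.1% of the B4 and 16.2% of the other zinc finger windows of chromosome 19, in 5.88% and 8.98% of those on the other chromosomes, and in 8.14% of all. Each motif was counted alone, so matches of different motifs can overlap, and a match is a description of the window only.

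Promoters of protocadherin genes placed in B4 were poor in G+C. The 37 windows of B4 genes had a median of 39.7% and 7 CpGs, and the 15 of genes outside B4 had 56.0% and 8. CCGGAAG was in 2.70% of the B4 windows, 1 of 37. Within B4 the 2 leading families thus had unlike promoters, and the 43 windows of B4 genes of neither family had 58.3% G+C and 18 CpGs.

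The codes of the coarser and finer clusterings show where its bins go when fewer or more groups are made. With 9 clusters, code 5 held all 282 B4 bins and no other. Each named cluster was made up of whole codes of this column, so B4 is code 5 of 9 under another name. That match is therefore fixed by the naming and is not a result. With 5 clusters B4 had no code of its own: 151 bins (53.5%) were in code 0, which otherwise held 9561 B2/B3 and 736 V+VI bins, and 105 (37.2%) in code 2, which held 11569 V+VI bins. Another 16 were in code 1, with 6826 B2/B3 bins, and 10 in code 3, with 9350 A2 bins. None was in code 4, which held all 3261 A1 bins.

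On chromosome 19 B4 bins fell in codes 0 (99 bins) and 2 (55 bins) of 5 only, and whole regions differed. All 15 B4 bins of chr19:11650001-12500000 were in code 2, whereas 41 of 46 in chr19:19700001-24400000 were in code 0. In chr19:56350001-58200000, 20 were in code 0 and 6 in code 2. The 55 bins in code 2 had 1.04 zinc finger genes per bin and 92.7% of them overlapped a zinc finger gene body, while the 99 in code 0 had 0.667 per bin and 73.7%. On the other chromosomes 52 were in code 0, 50 in code 2, 16 in code 1 and 10 in code 3. Chromosome 5 gave 15 of the 16 in code 1, 9 from the protocadherin locus and 6 from the ZNF354 run. Those in code 3 were 4 on chromosome 1, 4 on chromosome 3 and 2 on chromosome 9, the places where A2 stood on both sides of a run.

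Other numbers of clusters kept the bins together only over a narrow range. With 7 clusters all 282 were in code 4, along with 13 bins that are not B4 at 9 clusters, 10 of them V+VI and 3 B2/B3. With 8 clusters 278 of the 282 were in code 4, and no bin from outside B4. With 10 clusters the chromosomes parted: 144 B4 bins of chromosome 19 were in code 6, with 20 from other chromosomes, while 83 from other chromosomes were in code 5, with none of chromosome 19. From 10 to 20 clusters no B4 bin of chromosome 19 was in the leading code of the other chromosomes. With 64 clusters B4 bins were spread over 13 codes, and 78 of chromosome 19 were in one of them and 68 of the other chromosomes in another.

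**Figure D5:**
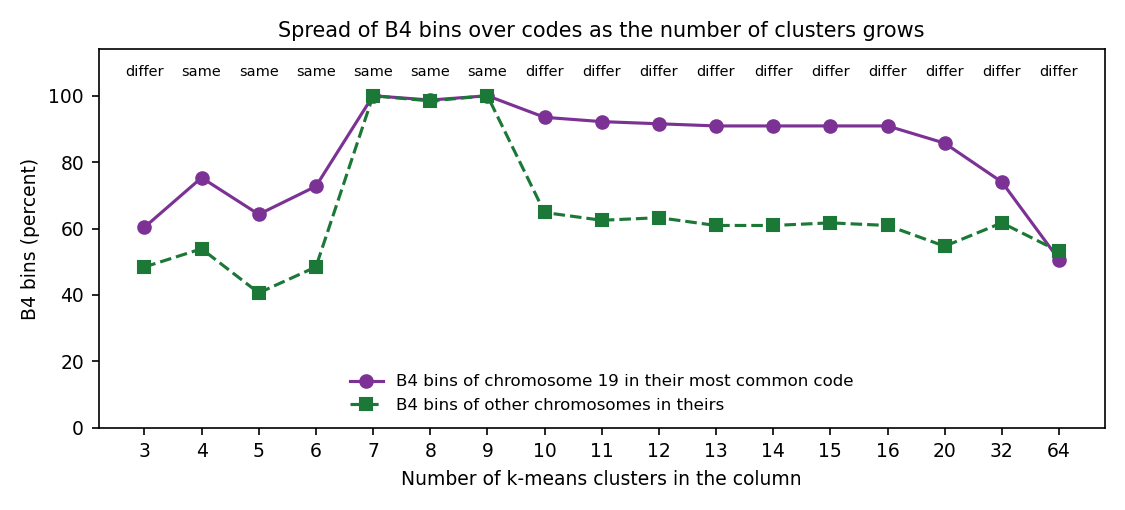
Points give the percent of B4 bins of chromosome 19 (circles) and of the other chromosomes (squares) in their most common code, against the number of k-means clusters. Words at the top say whether both lead with the same code, which holds from 4 to 9 clusters. All are in 1 code at 7 clusters and, since B4 is a code of that column, at 9. At 10 clusters it is 93.5% and 64.8% in different codes.

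The table also holds, for each number of clusters, a column that lists bins in an order. The order for 9 clusters, the only one checked, sorted the bins by code. Within B4 it sorted them by distance from the boundary between the arms, with a Spearman correlation of 0.999984 over 282 bins. It is therefore not a measure of how typical of B4 a bin is, and no ranking of the bins was taken from it.

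Contacts of chromosome 19 with other chromosomes could be counted in all 7 libraries, though not for B4 bins alone. Contacts with at least 1 end on chromosome 19 were each counted once, those within it from a separation of 100 kb on. The share with another chromosome in 3BKO cells was 51.3% without auxin, 52.0% at 4 d and 56.9% at 10 d. In DNMT1-AID cells it was 46.2%, 46.1% and 53.9% at these times, and 49.4% after washout. With 1 library for each group these values have no replicate error, and they say nothing about B4 bins by themselves. The same share was not computed for other chromosomes, so none of these values is shown to be particular to chromosome 19.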

How the data were processed

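The authors made Hi-C libraries with an Arima kit from DLD-1 cells and sequenced read pairs, per the labels' protocols. Reads were mapped with BWA to hg38, per the submitters' processing notes, while neither its version nor the read-pair filters nor the clustering program were stated in the labels or notes. The deposited cluster files give names of intervals and, for 50 kb bins, k-means codes for 3 to 64 clusters. They hold no contact value per bin. The deposited contact counts are raw sums per chromosome, per the file headers, used here only for depth and for chromosome 19, from a separation of 100 kb on. B4 bins were those wholly inside an interval named B4. Bins without a cluster stayed out of shares unless stated.

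Genes, promoters and microRNAs came from RefSeq tables of GRCh38.p14, the assembly family of hg38, and each gene was placed by its leftmost base. Of 19122 autosomal protein-coding genes, 15928 (83.3%) lay in a clustered bin. Arm boundaries were set by the number of bins in the short arm in the deposited contact tables. Families were counted by symbol, so read-through genes, PEG3 and KRABD5 are not among the zinc finger genes. Named genes are the first and last of the leading family in runs of 4 or more bins, up to 6 genes of the 10 longest runs outside chromosome 19, and families with at most 6 B4 genes. Other genes were named after their values were seen. The B4 bins, gene lists and rules were chosen with earlier results of these data known, and no list is independent support.

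No test was made, since each group had 1 library and the members were chosen by their contacts. Shares are over all bins or genes, not samples. Scripts used Python 3.11.15, pandas 2.3.3, numpy 2.4.6, scipy 1.17.1 and matplotlib 3.10.9, and were tested on simulated bins. The alternatives were the overlap that makes a bin B4, the denominator, joined runs, the place of a gene, leaving out chromosome 19, and other numbers of clusters.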

Additional observations from a re-analysis of the deposited data

How the results depend on the processing

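Of 16 alternatives, 13 left the value inside the 95% exact interval of the main one (counting error only), and 3 did not or, for the number of runs, moved it by over 1.5 times. Such an interval treats bins and genes as independent, which neighbours are not, so it serves as a yardstick only. Counting any overlap with a B4 interval gave the same 154 of 1003 bins as the main setting. The intervals are made of whole bins, so this match, which is among the 13, was fixed in advance. The interval was 13.2% to 17.7% for the B4 share of chromosome 19, 19.8% to 37.5% for the B2/B3 share of neighbours, which rests on 107 bins, 28.9% to 37.4% for zinc finger genes and 0.807 to 1.03 for genes per bin. Over all bins of chromosome 19, with those that had no cluster, B4 made up 13.1% in place of 15.4%. Joining runs that are 1 bin apart left 59 runs in place of 96. Without chromosome 19, 15.4% of clustered zinc finger genes were in B4 in place of 33.1%, which is the share of the other chromosomes by construction. The B2/B3 share of neighbours was 20.3% after joining runs and 31.0% with the nearest clustered bin within 5 bins, against 28.0%. Placing genes by midpoint or by most of the gene body gave 32.6% of zinc finger genes in B4. Taking code 4 of 7 clusters or code 4 of 8 clusters as B4, choices added after seeing the data, gave 35.5% and 32.4%. Genes per B4 bin ran from 0.837 to 0.922 over the alternatives. Steps planned but not run, since no genome and no protein sequences were used here, are the G+C content of bins and a zinc finger list by protein motif. No paired analysis was possible because each group holds 1 library. The clusters come from 1 library, so how far B4 would shift in another culture is unknown.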
